A study of Mus musculus with 23 samples.

Results

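The Nme nucleoside diphosphate kinase family was described across 23 RNA sequencing libraries of mouse melanomas. The members were the 7 listed genes Nme1 to Nme7, taken by matching the Ensembl identifiers of the count files to mouse gene symbols. All 7 had an identifier among the 37620 in the files. In every comparison 6 of them passed the filter on low counts, and Nme3 did not.

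The study sequenced total RNA of melanomas that, per the series title, were induced by ultraviolet light. Primary tumours labelled HP (7 libraries) carried wild-type Nme1 and Nme2, and primary tumours labelled HPN (7 libraries) were heterozygous for both genes (Nme1+/- and Nme2+/-). The metastases were all of the heterozygous genotype, with 7 libraries from lymph nodes and 2 from lung. The names HP and HPN are not spelled out in the labels, and no source used here gives the alleles that both strains share or the age of the animals. Nodes 3, 4 and 8 were brachial, node 6 and library 7a of node 7 were cervical, library 7b was inguinal, and node 5 was labelled only as lymph. Libraries 7a and 7b carry 1 title number and were summed for the tests, which leaves 6 node samples. Whether the primaries came from separate animals is not labelled. The p-values therefore measure only the sample-to-sample spread. The labels also do not say which exons of Nme1 and Nme2 were deleted, so it cannot be told whether the counted reads lie outside the deleted part. Such reads would not check the genotype.

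The depth of the 23 libraries was 18870759 to 89481553 gene counts, and 8 of them had counts in the entry for reads of low alignment quality. At this depth Nme1 and Nme7 had 150 to 1922 counts per library, while Nme2 and Nme5 had 2 to 66. Melanocyte markers were present in every group, with a summed level of at least 4739 CPM. No pair of libraries agreed within sampling noise.

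Nucleoside diphosphate kinases move a phosphate from one nucleoside triphosphate, usually ATP, to a nucleoside diphosphate, and so keep the pools of GTP, CTP, UTP and their deoxy forms filled. NME1 and NME2 are the abundant cytosolic enzymes. NME1 was the first gene described as a suppressor of metastasis, in melanoma cell lines, and it also acts as a nuclease in the SET complex. The other members are sorted by place in the cell: NME3, NME4 and NME6 at or in mitochondria, NME5 in the axoneme of cilia and sperm tails, and NME7 at the gamma-tubulin ring complex and in cilia.

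The sequences of Nme1 and Nme2 are shown first, because the study targeted both genes and their likeness bears on how reads are assigned to each. The transcripts compared each hold 459 coding bases in GENCODE vM21 (build GRCm38). They aligned without gaps and were identical at 367 positions (80.0%), and the longest identical run was 29 bases. Bases 286 to 405 of each, counted from the start codon, are given below, and capitals mark the 24 of 120 positions at which they differ.
Nme1: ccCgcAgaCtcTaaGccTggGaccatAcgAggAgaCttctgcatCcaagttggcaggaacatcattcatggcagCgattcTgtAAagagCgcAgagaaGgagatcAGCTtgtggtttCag
Nme2: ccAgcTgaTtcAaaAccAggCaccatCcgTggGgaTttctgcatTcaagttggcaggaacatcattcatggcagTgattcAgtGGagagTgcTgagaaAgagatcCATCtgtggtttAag
The stretch between the capitals in the middle of this window is shared by both genes, and differences are scattered on each side of it. No run of 50 bases was common to transcripts of Nme1 and Nme2 themselves, but reads can match other annotated transcripts. Of the distinct runs of 50 bases in the transcripts of Nme2, 47.0% also occurred in Gm20390, a read-through transcript of Nme1 and Nme2, 14.5% in Gm7730 and 10.7% in Gm5425. For Nme1 the share was 11.1%, all of it in Gm20390. The shares were 0.0% for Nme4 and Nme5, and 0.1% for Nme6 and Nme7.

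The levels of Nme2 and Nme3 are uncertain for this reason. In the annotation, whose build is later than the mm9 of the deposited counts, 573 of the 1171 exonic bases of Nme2 (48.9%) and 418 of the 3342 of Nme1 (12.5%) lie in exons of Gm20390 on the same strand. Gm20390 was listed with 0 counts in all 23 libraries. Nme3 shares 763 of its 876 exonic bases (87.1%) with Mrps34, a mitochondrial ribosomal protein gene on the same strand, which had 302 to 1905 counts. Nme3 had 4 counts in all: 2 in HPN primary 1, 1 in HPN primary 5 and 1 in node 4. The other 20 libraries had 0, and 3 counts, the limit that a count of 0 allows, correspond to 0.0324 to 0.138 CPM (counts scaled to a library total of 1e6) over the 23 libraries. This low count describes what was assigned to Nme3, and its expression cannot be read from it. On the opposite strand, Nme3 shares 577 of its 876 exonic bases (65.9%) with Mapk8ip3, which had 2042 to 9372 counts. Nme7 overlaps Atp1b1 over 9.8% and Blzf1 over 3.2% of its exonic bases, also on the opposite strand. Whether the authors counted by strand is not given in the sources used here.

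Levels between members were compared as CPM per kilobase of exon. Nme1 or Nme6 ranked first in 22 of 23 libraries, and Nme7 ranked first in lung 3. Nme1 exceeded Nme4, Nme5 and Nme2 in 23 of 23 libraries and Nme7 in 20 of 23. Nme1 and Nme6 were not separated: Nme1 was the higher in 12 of 23, with a median ratio of 1.16. Over the 23 libraries Nme1 averaged 3.49 ± 1.73 CPM per kilobase (SD), Nme6 3.19 ± 0.833, Nme7 1.97 ± 0.556 and Nme4 1.70 ± 0.656. The next steps of this order were Nme5 at 0.391 ± 0.338 and Nme2 at 0.243 ± 0.163 CPM per kilobase. Nme7 and Nme4 were also neighbours whose levels overlapped, with Nme7 the higher in 14 of 23, and Nme5 exceeded Nme2 in 16 of 23. The cytosolic Nme2 thus ranked among the lowest, with a median 14.7-fold gap to Nme1 per length, and its count may miss reads shared with Gm20390.

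**Figure D1:**
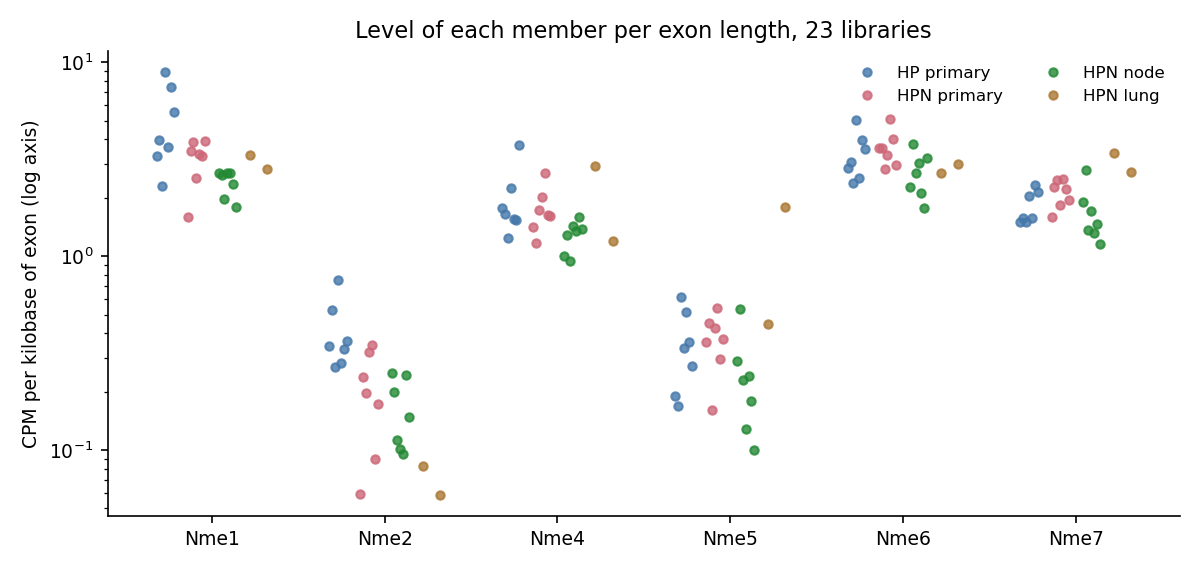
Level of each measured member in CPM per kilobase of exon (log axis), 1 point per library, coloured by group. Nme1 and Nme6 lie highest and overlap, Nme4 and Nme7 lie below them, and Nme2 and Nme5 lie lowest except for Nme5 in lung 4.

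The first comparison asks how the transcripts of the targeted genes themselves stood in heterozygous and wild-type primary tumours. Nme1 (ENSMUSG00000037601, chromosome 11) ranged from 7.69 CPM (HP primary 4) over a median of 13.2 to 29.8 CPM (HP primary 5) in HP primaries. In HPN primaries it ranged from 5.30 CPM (HPN primary 1) over a median of 11.3 to 13.1 CPM (HPN primary 7). The groups overlapped, but all 7 HPN primaries lay below the median of the HP primaries. The means were 16.8 ± 8.06 CPM (SD, n = 7) and 10.6 ± 2.78 CPM (n = 7), and the HP group was the more spread.

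Nme2 (ENSMUSG00000020857, chromosome 11) rested on few counts, 11 to 41 per HP primary and 2 to 21 per HPN primary. It ranged from 0.313 CPM over a median of 0.404 to 0.877 CPM in HP primaries, and from 0.0698 over 0.231 to 0.407 CPM in HPN primaries. The groups overlapped, and 5 of 7 HPN primaries lay below every HP primary. The means were 0.480 ± 0.201 CPM (n = 7) and 0.238 ± 0.127 CPM (n = 7).

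**Figure D2:**
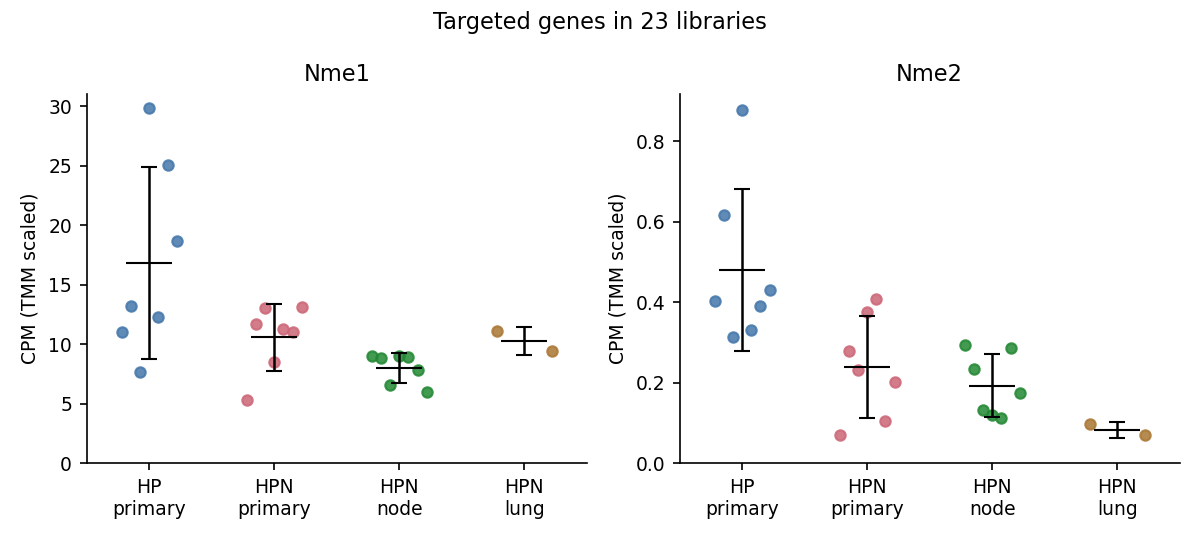
CPM of Nme1 and Nme2 in each of the 23 libraries by group, with 1 point per library, the group mean as a horizontal line and the SD as whiskers. HP primaries 5, 7 and 9 stand highest for Nme1 (18.6 to 29.8 CPM), and no library of the heterozygous genotype exceeds 13.1 CPM.

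In the edgeR quasi-likelihood fit over all genes the log2 difference of HPN from HP primaries was -0.69 for Nme1 (SE 0.27, 95% interval -1.28 to -0.10) and -1.02 for Nme2 (SE 0.38, -1.84 to -0.19). Both intervals lie below 0 and contain -1, the value of a halved level. Neither gene passed the threshold of an adjusted p under 0.05 (edgeR, Benjamini-Hochberg adjusted p = 0.951 for each). The fit called 0 of 16578 genes (0% of those tested) with 477 at an unadjusted p under 0.05, and DESeq2 and limma voom also called 0, with 851 and 2306. In limma voom with sample weights the value of Nme1 was -0.31 (SE 0.23, adjusted p = 0.492) and that of Nme2 -1.05 (adjusted p = 0.338). Ordered by unadjusted edgeR p, Nme2 ranked 109 and Nme1 ranked 160 of these genes.

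Single values were also compared by exact permutation, two-sided, of the difference in mean log2(CPM + 0.5), where all 3432 arrangements of the primaries were counted and the smallest possible p is 0.000583. The difference in means was -0.40 for Nme2 (exact permutation p = 0.0105, adjusted over 3 tests 0.0315) and -0.56 for Nme1 (exact permutation p = 0.0927, adjusted 0.139). The size for Nme2 depends on the pseudocount, with -0.81 at 0.1 and -0.25 at 1 and the same p. The Nme2 call did not hold in every setting. It was lost when the 6 title numbers found in HP and in HPN were used as a replicate block (-0.43, exact permutation p = 0.0625, adjusted 0.141, smallest possible p 0.0312). Beside the other blocked exact tests, even that smallest p would not have passed after adjustment, so this loss cannot show whether the call is stable. Without the libraries that had counts in the entry for low alignment quality it was lost too (adjusted exact permutation p = 0.286). Leaving out HP primary 3, 5 or 9 or HPN primary 1, 2, 3, 6 or 7 also ended it (adjusted exact permutation p = 0.0524 to 0.0717). Nme1 passed without HP primary 4 (-0.72, adjusted exact permutation p = 0.0332).

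The share of Nme2 in the counts of both genes was the third value tested. It averaged 3.02 ± 1.005% (n = 7) in HP and 2.22 ± 1.21% (n = 7) in HPN primaries, a difference of -0.80 percentage points (exact permutation p = 0.200, adjusted 0.200). The shares ran from 1.54% to 4.44% in HP primaries and from 0.946% to 4.23% in HPN primaries, so the groups overlapped almost fully. Single shares are imprecise: HPN primary 1, with 2 of 154 counts, had a share of 1.30% (95% Wilson interval 0.357% to 4.61%), which covers counting error only.

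Keratinocyte transcripts varied strongly among the primaries, and in HP primaries Nme1 and most other measured members averaged lower where they were high. The summed CPM of 12 keratinocyte markers, among them the keratins Krt5 and Krt14, was 9.93 to 34.5 in HP primaries 5, 7 and 9 and 5515 to 17892 in the other 4. It was 2.93 to 68.7 in HPN primaries 2, 5 and 7 and 1060 to 8819 in the other 4. None of the 12 markers was at 0 in a whole group. Nme1 averaged 24.5 ± 5.62 CPM in the 3 HP primaries under 100 CPM of these markers and 11.1 ± 2.42 CPM in the 4 over 1000 CPM, while the HPN means were 12.03 ± 0.951 and 9.46 ± 3.33 CPM with overlapping ranges. In the primaries under 100 CPM, Nme1 was at 18.6 to 29.8 CPM in the 3 HP and 11.3 to 13.1 CPM in the 3 HPN samples, with no overlap. In those over 1000 CPM, it was at 7.69 to 13.2 CPM in the 4 HP and 5.30 to 13.01 CPM in the 4 HPN samples, which overlapped. Such a split among HP primaries was not particular to Nme1. Nme6 averaged 8.77 CPM under 100 CPM and 5.65 CPM over 1000 CPM of the markers, Nme7 12.8 and 9.03 CPM, and Nme4 3.97 and 2.45 CPM. Nme5 went the other way, at 0.371 and 0.431 CPM. The proliferation gene Mki67 averaged 336 ± 130 and 179 ± 88.7 CPM in the same samples. In the HPN primaries of these strata Mki67 averaged 375 ± 124 and 153 ± 10.3 CPM. The limits were set after the values were seen, and no difference between the strata was tested. Nor was the share of all genes without overlap counted.

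Nme2, from few counts, was also lower on average over 1000 CPM of these markers. Its means there were 0.416 CPM in HP and 0.195 CPM in HPN primaries, against 0.566 and 0.296 CPM under 100 CPM. In the samples under 100 CPM it was at 0.390 to 0.877 CPM in HP and 0.202 to 0.407 CPM in HPN, and in those over 1000 CPM at 0.313 to 0.616 CPM in HP and 0.0698 to 0.376 CPM in HPN. The HPN mean was 52.3% of the HP mean in the first stratum and 47.0% in the second, against 49.1% and 85.5% for Nme1. These shares rest on 3 or 4 samples per group and were not tested against each other. With the mean log2 level of the keratinocyte markers as a covariate, the edgeR log2 difference was as large, -0.68 for Nme1 (SE 0.20, adjusted p = 0.864) and -1.08 for Nme2 (SE 0.38, adjusted p = 0.864). Fewer cells of a type and less RNA per cell cannot be told apart in such bulk samples.

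Counts in the entry for low alignment quality split the libraries as well, 4 HP primaries and 1 HPN primary against 3 and 6 without them. Without such counts Nme1 averaged 16.2 ± 11.9 CPM (n = 3) in HP and 10.1 ± 2.79 CPM (n = 6) in HPN primaries. With them it averaged 17.3 ± 5.85 CPM (n = 4) in HP and was 13.1 CPM in the 1 HPN primary. For Nme2 the means were 0.531 and 0.244 CPM without such counts, and 0.441 CPM in HP and 0.202 CPM in the 1 HPN primary with them. HPN was the lower in both strata for both genes.

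The genes beside the targeted locus were read in the same fit. The nearest 3 tested protein-coding genes on each side had log2 differences of -0.07 (Tom1l1), -0.06 (Utp18), -0.29 (Mbtd1, SE 0.18), -0.19 (Spag9), 0.21 (Tob1) and -0.20 (Wfikkn2). The interval of Wfikkn2 (-1.24 to 0.84) contains the values of Nme1 and Nme2, and that of Mbtd1 (-0.66 to 0.088) overlaps the interval of Nme1. None was called by edgeR (adjusted p = 0.951 to 0.976), and no difference between these genes and the targeted genes was tested.

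The 2 RefSeq start sites of Nme1 (build GRCm38.p6, minus strand) each had the letters CACGTG, the core of the E-box that MYC and related factors bind, in the window from 250 bases before to 50 bases after the start. They are shown because Nme1 is known as a target of MYC. Capitals mark the motif, which reads the same on both strands.
Nme1 chr11:93968273-93968302: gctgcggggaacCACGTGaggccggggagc
Nme1 chr11:93968037-93968066: agcttgatacgcCACGTGggctcgcctttg
The motif ends 12 bases before the start in the first and 23 bases before it in the second. The table held 8 windows for 6 of the 7 members, with none for Nme5, and these were the 2 with the motif. It occurred in 2349 of 32851 windows of the same length (7.15%). A match is a description of letters and not a site. Of 14 growth and nucleolus genes known as induced by MYC, 0 were called between the genotypes, as were 0 of all 16578 genes tested. Their median log2 difference was 0.084 beside -0.052 for all genes tested.

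The mitochondrial and ciliary members had log2 differences between -0.19 and 0.20 in the genotype comparison, and their difference from Nme1 and Nme2 was not tested. Nme4, a kinase of the mitochondrial intermembrane space (ENSMUSG00000024177), ranged from 1.97 over a median of 2.60 to 5.95 CPM in HP and from 1.84 over 2.57 to 4.23 CPM in HPN primaries. The groups overlapped, and the edgeR log2 difference was -0.19 (adjusted p = 0.951, 95% interval -0.78 to 0.40), an interval that contains the value of Nme1. Among the primaries under 100 CPM of keratinocyte markers the HPN mean of Nme4 was 72.4% of the HP mean, and among those over 1000 CPM it was 109.4%. Nme6, also mitochondrial (ENSMUSG00000032478), averaged 6.99 ± 1.95 CPM (n = 7) in HP and 7.59 ± 1.60 CPM (n = 7) in HPN primaries, a log2 difference of 0.10. Nme7 (ENSMUSG00000026575) averaged 10.6 ± 2.08 and 12.4 ± 1.99 CPM, a log2 difference of 0.20 (95% interval -0.10 to 0.50). Among the primaries over 1000 CPM of keratinocyte markers it was at 8.79 to 9.27 CPM in the 4 HP and 9.38 to 14.5 CPM in the 4 HPN samples, without overlap, and among those under 100 CPM the genotypes overlapped. How many of all genes lack overlap in these strata was not counted. Nme5 (ENSMUSG00000035984) averaged 0.405 ± 0.191 and 0.430 ± 0.139 CPM, a log2 difference of 0.04. None of the 4 was called by edgeR (adjusted p = 0.951 to 0.989).

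**Figure D3:**
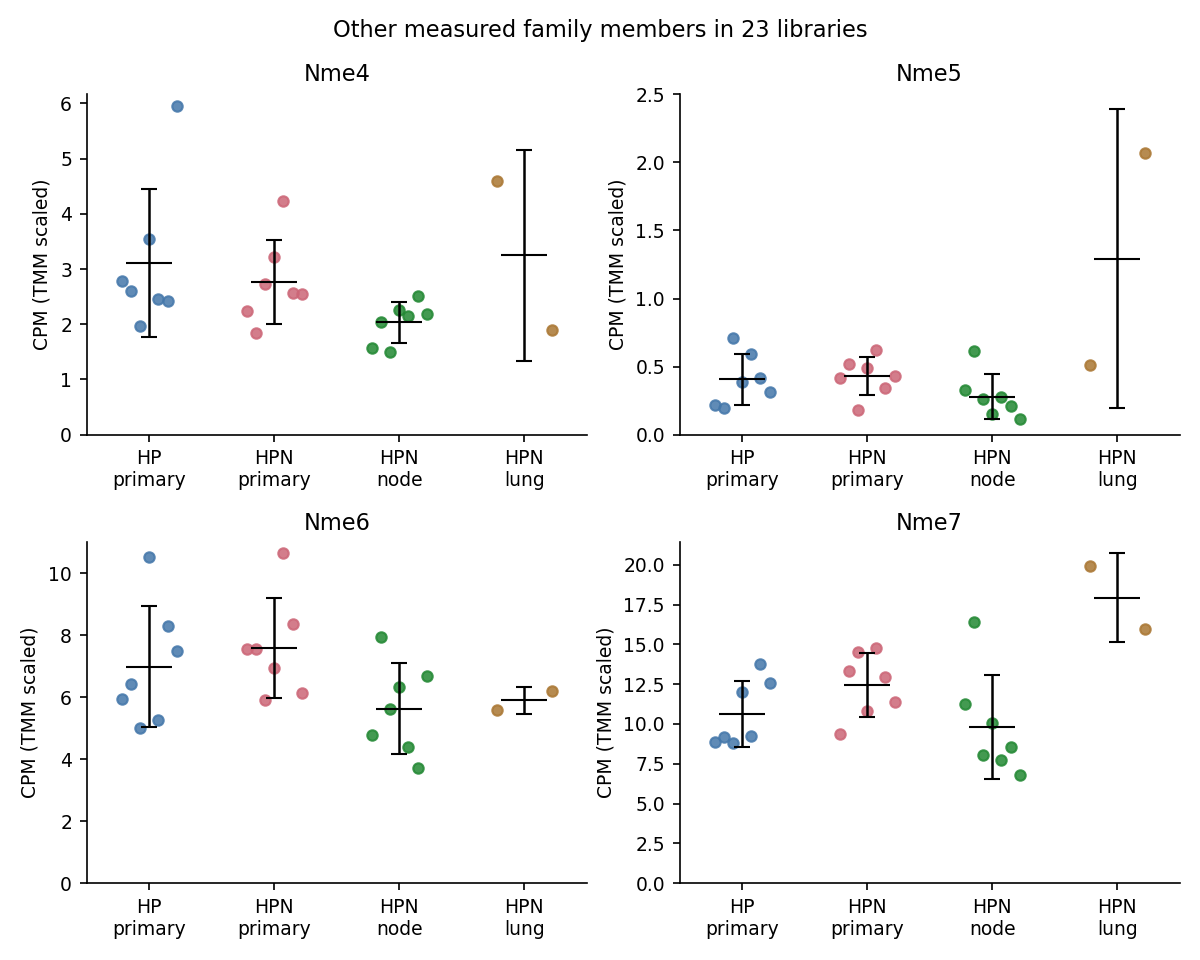
CPM of Nme4, Nme5, Nme6 and Nme7 in each of the 23 libraries by group, with 1 point per library, the group mean as a horizontal line and the SD as whiskers. HP and HPN primaries overlap in every panel, node 4 is the highest node for Nme5, Nme6 and Nme7, and lung 4 stands alone for Nme5 (2.07 CPM).

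The second comparison addresses how node metastases differ from primaries of the same genotype. All 6 measured members had negative log2 differences in the nodes, where 45.1% of all genes tested had positive ones, and none of the members was called. The fit called 22.5% of 19152 genes, with 12.7% of those tested higher and 9.81% lower, and the median log2 difference of all genes was -0.077. The members' median was -0.40. Nme1 ranged from 6.01 over a median of 8.81 to 9.01 CPM over the 7 node libraries, a narrow range that lay wholly below the median of the HPN primaries and overlapped their lower part. The edgeR log2 differences were -0.42 for Nme1 (SE 0.21, adjusted p = 0.151), -0.33 for Nme2 (adjusted p = 0.593) and -0.50 for Nme4 (SE 0.29, adjusted p = 0.217). Those of Nme5, Nme6 and Nme7 were -0.62, -0.38 and -0.32 (edgeR adjusted p = 0.331, 0.187 and 0.251).

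Within the 5 title numbers with a primary and a node, each taken as 1 animal, Nme4 was lower in the node in 5 of 5, by 0.10 to 1.24 on the log2(CPM + 0.5) scale. Nme1, Nme6 and Nme7 were lower in 4 of 5, Nme5 in 3 of 5 and Nme2 in 2 of 5. With the title number as a replicate block, the log2 differences were -0.50 for Nme1 (edgeR adjusted p = 0.145), -0.70 for Nme4 (0.251) and -0.35 for Nme7 (0.332), and again no member was called, where 7% of genes were.

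Single samples decided some of these results. Without HPN primary 1, the sample with the lowest Nme1, that gene fell in the nodes (edgeR log2 -0.58, adjusted p = 0.0260). It passed only in this 1 of 26 other settings, where 5333 of 18814 genes were called. Node 4 had 16.4 CPM of Nme7, above every HPN primary, while 4 of the other 6 node libraries lay below all of them. Without node 4 the log2 difference of Nme7 was -0.50 and passed (edgeR adjusted p = 0.0469), and it passed in limma voom with sample weights (-0.55, adjusted p = 0.0201). Those were 2 of 26 other settings, with 5308 of 19086 and 6519 of 19152 genes called.

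Lymphocyte transcripts moved with the site. The summed CPM of 8 B cell markers ran from 188 to 1879 over the node libraries and from 0.752 to 10.04 over the HPN primaries, and that of 9 T cell markers from 99.4 to 656 and from 4.17 to 34.7. Melanocyte markers summed to 4739 to 45522 CPM in nodes and 6460 to 64535 CPM in HPN primaries. Node 4, the highest node for Nme5, Nme6 and Nme7, had the lowest B cell (188 CPM) and T cell (99.4 CPM) sums of the nodes. It also had their highest melanocyte sum (45522 CPM). Keratinocyte markers summed to 31.3 to 103 CPM in nodes, far below the 4 HPN primaries over 1000 CPM. The 3 HPN primaries under 100 CPM had 11.3 to 13.1 CPM of Nme1, above every node library, and the share of all genes with such a gap was not counted. Skeletal muscle markers (8 genes) summed to 2.58 to 3655 CPM in HPN primaries (median 129) and 2.83 to 8.11 CPM in nodes, and macrophage markers (7 genes) had medians of 419 and 849.9 CPM. The part of these cell types in the members' differences was not tested.

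The third comparison addresses lung metastases, with 2 libraries. Nme1 was at 11.1 CPM in lung 3 and 9.45 CPM in lung 4, within the range of the HPN primaries and above every node library. Nme2 had 3 and 2 counts, or 0.0965 and 0.0690 CPM, and its log2 difference from primaries was -1.50 (edgeR adjusted p = 0.684). Nme4 differed between the lungs, at 4.60 CPM in lung 3 and 1.90 CPM in lung 4. Nme6 was at 5.59 and 6.21 CPM. Nme7 was at 19.9 CPM in lung 3 and 16.0 CPM in lung 4, above all 7 HPN primaries (9.38 to 14.8 CPM), and lung 4 lay just below node 4. With only 2 lung libraries, the share of all genes with such gaps between groups was not counted. The log2 difference of Nme7 from HPN primaries was 0.52 (edgeR adjusted p = 0.728), and that of Nme5 was 1.58 (SE 0.58, edgeR adjusted p = 0.572). Without lung 4 the value of Nme5 was 0.25 (edgeR adjusted p = 0.979), and without lung 3 it was 2.27 (0.136). No member was called in a comparison that called 0.266% of genes, with 0.0157% of those tested lower. DESeq2 called 167 genes higher and 185 lower in the same comparison, so the balance of directions depended on the tool.

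Between lung and node, 1 of the 6 members was called, in a comparison that called 5.04% of genes, 1.96% in the higher and 3.09% in the lower direction. Nme5, part of the radial spoke of motile cilia, was at 0.514 CPM (16 counts) in lung 3 and 2.07 CPM (60 counts) in lung 4. The 7 node libraries ran from 0.115 over a median of 0.264 to 0.613 CPM, so lung 3 lay within the range of the nodes and lung 4 above it. The log2 difference was 2.20 (SE 0.60, edgeR adjusted p = 0.0483). Nme7 was also higher on average (0.84, SE 0.28, edgeR adjusted p = 0.0914), and it passed with DESeq2 (0.83, adjusted p = 0.0370), with limma voom (1.06, adjusted p = 0.0302) and without node 4 (1.02, edgeR adjusted p = 0.0180). Those were 3 of 26 other settings, and 2467, 1206 and 2017 genes were called in them. Nme4, Nme1, Nme6 and Nme2 had log2 differences of 0.71, 0.38, 0.02 and -1.17 and were not called.

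**Figure D4:**
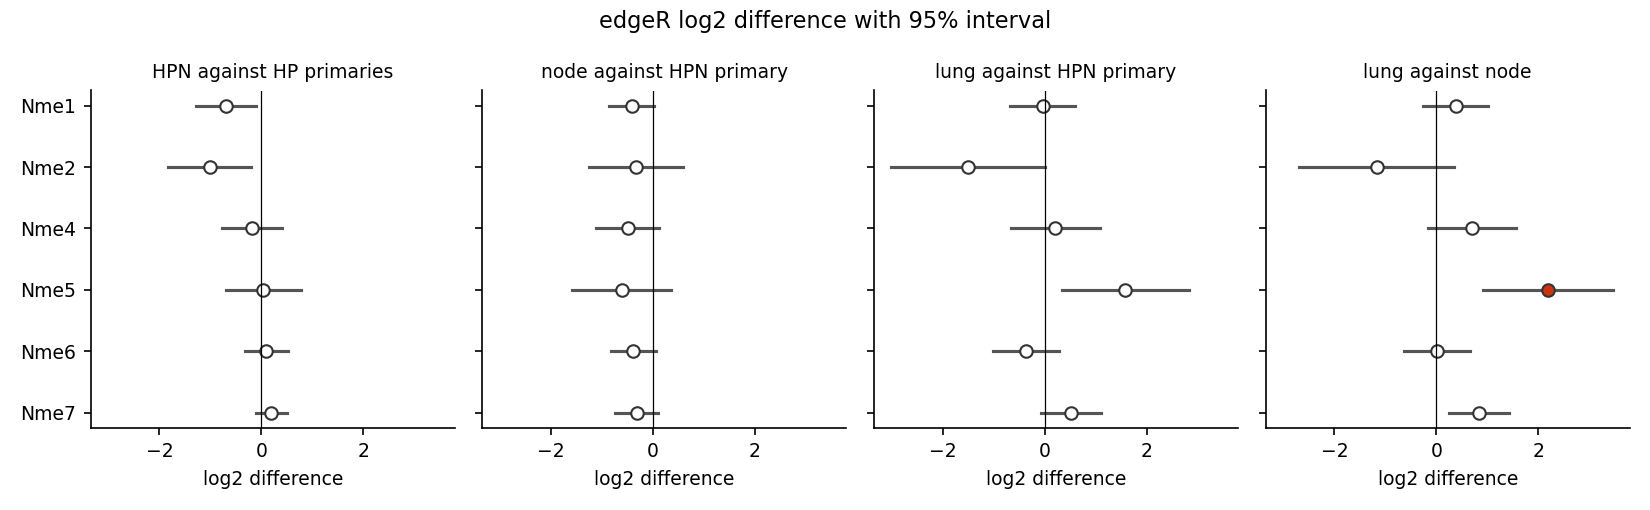
edgeR log2 difference of each measured member in 4 comparisons, as points with 95% intervals; the filled point marks an adjusted p under 0.05. The intervals of Nme1 and Nme2 lie below 0 in the genotype comparison, all 6 points are negative for nodes, and Nme5 between lung and node is the filled point.

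The Nme5 call rested on lung 4. Without that library the log2 difference was 0.85 (edgeR adjusted p = 0.626), and without lung 3 it was 2.89 (adjusted p = 0.0344). It held in 7 of 25 other settings. With the title number as a replicate block, the difference was 1.70 (edgeR adjusted p = 0.340), where no gene was called. In those samples without the block it was 2.09 (edgeR adjusted p = 0.0991), and among the libraries without low-quality counts it was 1.95 (adjusted p = 0.175). Leaving out any of HPN primaries 2 to 7 or nodes 3, 5, 6, 7 and 8 gave an edgeR adjusted p of 0.0515 to 0.0916.

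Markers of multiciliated airway cells stood high in the same library. Their 13 genes summed to 73.2 CPM in lung 4 and 22.3 CPM in lung 3, against 7.66 to 29.5 in HP primaries, 8.51 to 47.5 in HPN primaries and 6.95 to 21.97 in nodes. All 13 had counts in lung 4 and 8 had counts in lung 3. Of the sum in lung 3, 16.9 CPM came from Ccdc40, which reached 37.9 CPM in HPN primary 5 and was at 9.42 CPM in lung 4. Ccdc39 did not stand out in lung 4 either, at 4.17 CPM there, 3.99 CPM in lung 3 and 6.21 CPM in node 4. Foxj1, the master regulator of motile cilia, had 352 counts in lung 4 (12.1 CPM) and 26 in lung 3 (0.836 CPM). It was also present in primaries, with 3.20 CPM in HPN primary 5. The axonemal dynein genes Dnah5 and Dnah9 had 493 and 284 counts in lung 4, and both were at 0 in lung 3. Hydin, Rsph4a and Tekt4, genes of the axoneme, had 241, 92 and 20 counts in lung 4 and 0 in lung 3. Tekt4 was also at 0 in all 14 primaries. Markers of the alveolar epithelium summed to 7339 CPM in lung 4 and 4.37 CPM in lung 3, within 3.20 to 15.7 CPM of the HPN primaries and below the 20.4 to 105.7 CPM of the nodes. The part of these cells in the Nme5 difference was not tested.

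Of the related genes outside the 7 members, only Nme9 stood out in the same library. Nme9, an axonemal thioredoxin with kinase domains, had 53 counts in lung 4 (1.83 CPM), 0 in lung 3 and in all HP primaries, and at most 6 elsewhere. Nme8, of the same kind, had 3 counts in all 23 libraries together and 0 in lung 4. Rp2, a relative with a kinase-like domain that acts in transport to cilia, was the only one of these 3 genes tested. It averaged 36.4 ± 5.65 CPM (n = 7) in HP primaries, 28.0 ± 6.61 CPM in HPN primaries (n = 7) and 49.2 ± 12.7 CPM in node samples (n = 6). In the lungs Rp2 was at 36.1 CPM (lung 3) and 37.7 CPM (lung 4). Rp2 rose in the nodes (edgeR log2 0.80, SE 0.19, adjusted p = 0.00801), also with the replicate block (0.62, adjusted p = 0.0335). It was not called in those same samples fitted without the block, nor among libraries without low-quality counts (0.71, adjusted p = 0.0657). Between the genotypes it was not called (-0.41, SE 0.14, edgeR adjusted p = 0.951).

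**Figure D5:**
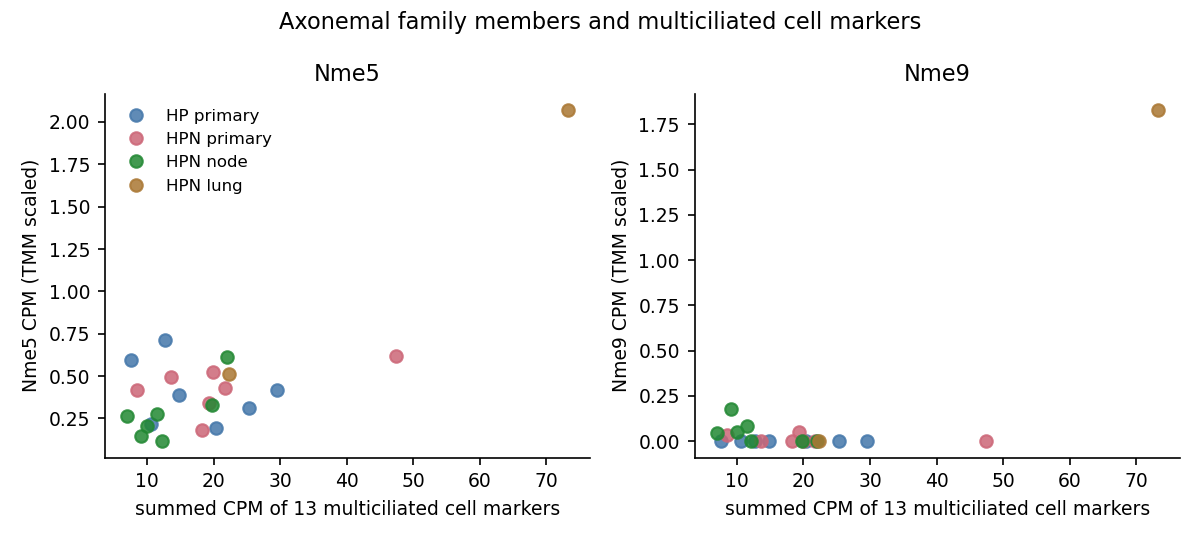
CPM of the axonemal family genes Nme5 (left) and Nme9 (right) against the summed CPM of 13 multiciliated cell markers, 1 point per library, coloured by group. Lung 4 lies alone at the upper right (73.2 CPM of markers) in both panels, and lung 3 lies among the other libraries.

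Genes that work beside the family were counted by list. No gene of any of the 8 lists was called between the genotypes, where 0 of all 16578 genes tested were called, so these counts say nothing about the lists. Among 19 tested kinases of nucleotides the median log2 difference was -0.062, and among 22 genes of nucleotide synthesis it was -0.029, beside -0.052 for all genes tested. The 14 tested binding partners of NME proteins had a median of -0.031, and the 4 tested nuclease partners of NME1 in the SET complex one of -0.039. Of 7 genes known as repressed by NME1 in cancer cell lines, such as the receptor genes Met and Lpar1, 2 were positive and 5 negative, with a median of -0.015.

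In the nodes, 3 of 20 tested nucleotide kinases were called, 1 higher and 2 lower (median -0.13), where 22.5% of all genes tested were called. Ak1, a cytosolic adenylate kinase, averaged 8.67 ± 1.78 CPM in nodes (n = 6) against 24.3 ± 17.4 CPM in HPN primaries (n = 7), where skeletal muscle markers also ranged higher, and fell (edgeR log2 -1.52, adjusted p = 0.0130). The uridine-cytidine kinase gene Uck2 fell by 0.71 on the log2 scale (edgeR adjusted p = 0.0175), and the mitochondrial thymidine kinase gene Tk2 rose by 0.83 (adjusted p = 0.0131). With the replicate block Tk2 was lost (0.64, edgeR adjusted p = 0.0997), as it was in those samples without the block, and the other two kept their calls. All 3 were lost without the libraries with low-quality counts (edgeR adjusted p = 0.0523 to 0.0813).

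Of 22 genes of nucleotide synthesis, 2 rose and 1 fell in the nodes (median 0.013), where 12.7% of all genes tested rose and 9.81% fell. Samhd1, which breaks down deoxynucleoside triphosphates and is abundant in immune cells, averaged 231 ± 103 CPM in nodes (n = 6) against 59.5 ± 12.8 CPM in HPN primaries (n = 7) (edgeR log2 1.94, SE 0.30, adjusted p = 0.000676). It rose in every other setting run. Samhd1 was lower in lung than in node (-1.89, edgeR adjusted p = 0.0437), a call lost with the replicate block (-1.39, adjusted p = 0.405), and when any 1 of HPN primaries 3 to 6, nodes 5 to 8, lung 3 or lung 4 was left out (adjusted p up to 0.275). The Samhd1 call between lung and node was lost in the same samples without the block as well. It was also lost with all 4 groups in 1 fit, with the low-quality entry as a term, and without those libraries (edgeR adjusted p = 0.143). In the nodes, the CTP synthase gene Ctps2 rose by 0.52 (edgeR adjusted p = 0.0282), which was lost without HPN primary 4 or node 5, 6 or 8 (adjusted p up to 0.0849). The thymidylate synthase gene Tyms fell by 0.65 (edgeR adjusted p = 0.0495), which was lost when any 1 of the 15 samples other than HPN primaries 1 and 4 and lungs 3 and 4 was left out (adjusted p up to 0.127). Both were also lost with the replicate block (edgeR adjusted p = 0.111 and 0.171).

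NME1 and NME2 also phosphorylate histidine on proteins, and 3 phosphatases are known to remove that mark. Phpt1 was higher in the nodes (edgeR log2 1.08, adjusted p = 0.0220) at a low level, 0.806 ± 0.229 CPM (n = 6) against 0.374 ± 0.0904 CPM (n = 7), and was lost without node 5 (adjusted p = 0.0517). Lhpp fell by 0.60 (edgeR adjusted p = 0.0446), a call lost without HPN primary 2, 3 or 7, node 3, 5, 6 or 8, lung 3 or lung 4 (adjusted p up to 0.121). Pgam5 had a log2 difference of 0.11 (edgeR adjusted p = 0.547). With the replicate block neither Phpt1 nor Lhpp was called (edgeR adjusted p = 0.129 and 0.143).

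Among 14 tested binding partners 1 rose in the nodes (median -0.26). The counts of this and the next lists, 1 of 14, 1 of 7 and 1 of 14, stand beside 22.5% of all genes called. Gng2, a G protein subunit gene, averaged 62.8 ± 19.7 CPM (n = 6) against 28.7 ± 7.24 CPM (n = 7; edgeR log2 1.12, adjusted p = 0.00294). Gng2 was lost with the replicate block (0.94, edgeR adjusted p = 0.104). Of the 7 genes known as repressed by NME1, 1 fell: the Wnt receptor gene Fzd1 (edgeR log2 -0.81, adjusted p = 0.0377), a call lost without HPN primary 1, 4 or 6 or node 3, 5, 6, 7 or 8 (adjusted p up to 0.0790). The next genes of that list, Lpar1 and L1cam, had log2 differences of 1.64 and -0.86 (edgeR adjusted p = 0.0526 and 0.0599). Of the 14 genes induced by MYC, Ldha fell (edgeR log2 -1.16, adjusted p = 0.0398), which was lost with the replicate block (adjusted p = 0.0731) and without HPN primary 4, 5 or 7, node 3, 5, 6 or 8 or lung 4 (up to 0.103). Of the pathway genes whose node call was lost with the replicate block, only Gng2 kept it in the same samples without the block. Without the libraries with low-quality counts, only Samhd1 and Gng2 kept their node calls among the pathway genes named. The markers of B cells, T cells, skeletal muscle and macrophages given above moved with all of these node results, and their part was not tested.

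The genes whose levels ran most like each member were taken by Pearson's r of log2(CPM + 0.5) over 22 samples among 11624 protein-coding genes of at least 5 CPM, as a description. The samples share their groups, and libraries differ in depth. For Nme1 these were Nudcd2 (r = 0.83), the proteasome gene Psmd6 (0.82) and Sco1, which acts in assembly of cytochrome c oxidase (0.81). For Nme6 they were the proteasome assembly gene Psmg3 (0.85), the mitochondrial Alkbh7 (0.84) and the coenzyme Q gene Coq4 (0.83). For Nme7 they were Mpdz, Cdc42bpa and the fatty acid oxidation gene Acadl (0.92 each), and for Nme4 the matrix protease gene Adamts14 (0.82), Jun (0.79) and the haem oxygenase gene Hmox1 (0.78). Among Nme1, Nme4, Nme6 and Nme7 themselves r lay between 0.37 and 0.50. The genes named above were picked as the highest of 11624, so their r cannot serve as a measure for that of the members. The r of all gene pairs was not summarized. Nme2, Nme3 and Nme5 averaged under 1 CPM and were not compared.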

How the data were processed

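Directional libraries were made from total RNA, per the labels' protocols. The submitters' processing notes name bcl2fastq 1.8.4, the aligner STAR 2.5.3a and the build mm9. The authors deposited raw counts per Ensembl gene for each library, as whole numbers without normalization. No source used here gives the counting tool, its annotation or its use of strand. The 5 summary entries of each file were left out. Symbols came from GENCODE vM21 (GRCm38), which matched 87.45% of identifiers.

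Counts were fitted with edgeR 4.0.16 (filterByExpr, TMM, robust quasi-likelihood, Benjamini-Hochberg over all genes tested, threshold 0.05) in R 4.3.3, over the 14 primaries for genotype and over 15 HPN samples in 1 fit for site. The code was tested on simulated data. CPM were scaled by TMM over 23 libraries. Exact permutation tests used log2(CPM + 0.5) and were adjusted over 3 tests. Alternatives were DESeq2 1.42.0, limma voom 3.58.1, other scalings, filters and pseudocounts, a replicate block, a keratinocyte covariate, and single libraries left out. Scaling over the 14 primaries alone, the blocked samples without the block, and the strata by keratinocyte markers were added after seeing the data. The members and lists were chosen with earlier results of these data known. Named genes were the members, 3 genes most like each, up to 3 genes per list with a call, 3 neighbours on each side, and markers.

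Same-numbered HP and HPN primaries deviated together (correlations 0.616, 0.350, 0.560, 0.661, 0.104 and 0.556), although no label says that the strains share a number's meaning. Keratinocyte markers were over 1000 CPM in both primaries of numbers 1, 3, 4 and 6 and under 100 CPM in both of numbers 5 and 7. Nodes, lungs and primaries of 1 number carry 1 title and were taken as 1 animal (node and primary correlations -0.0826 to 0.265).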

Additional observations from a re-analysis of the deposited data

Results flagged for a closer look

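Nme4 in HP primary 9 stood apart from the other HP primaries, at 5.95 CPM where the next was 3.54 CPM. Its gap to the next sample was 0.604 of the group's range, above the 95% critical value of Dixon's test for 7 samples. In all 18 groups were examined in this way, and chance marks about 1 in 20.

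Nme9, which is outside the 7 members, had 53 counts in lung 4, above the limit that a count of 0 allows, with 0 in lung 3 and in the HP primaries.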

How the results depend on the processing

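Precision is limited by 2 lung libraries and by the few counts of Nme2 and Nme5, and by the uncertain assignment of reads to Nme2 and Nme3. Limits set by lymphocyte, lung and skin tissue in the samples apply to all site results, and causes were not tested here. The count of genes called in nodes (4313) was 6519 with limma voom, 1307 with the replicate block (2681 in those samples without it) and 1542 without libraries with low-quality counts. In lung against HPN primaries (51) it was 352 with DESeq2, 0 with limma voom, 138 without a count filter, 12 above 1 CPM, 89 with 4 groups in 1 fit, 0 with the replicate block and 0 without it in the same samples, and 1 without low-quality libraries. In lung against node (966) it was 2467 with DESeq2, 0 with the replicate block (526 in those samples without it), 263 with the low-quality entry as a term and 0 without those libraries. Leaving out single samples gave 0 in every case for genotype, 2731 to 5333 for nodes, 0 to 393 for lung and 0 to 2017 for lung against node.

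For the exact permutation tests, Nme2 gave -0.45 without low-quality libraries and -0.43 with the replicate block, both no longer called, and -0.46 to -0.32 without single samples. The blocked test could not have given a call after adjustment. Nme1 gave -0.72 to -0.41 and the Nme2 share -1.14 to -0.56 percentage points. Over the 14 primaries scaled alone, Nme1 gave -0.60 (adjusted exact permutation p = 0.0778) and Nme2 -0.41 (0.0245).

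Signs turned only for members that were not called. For genotype, Nme4 gave 0.093 with the replicate block, 0.10 in those samples without it and 0.032 without low-quality libraries, and Nme5 gave -0.030, -0.071 and -0.049 in the same 3 settings and -0.045 with the low-quality term. Nme1 in lung gave 0.013 without low-quality libraries. Nme6 in lung against node gave -0.014 without a filter, -0.070 with the low-quality term and -0.044 without those libraries. Without single samples, Nme4, Nme5 and Nme6 ran from -0.32 to 0.024, -0.087 to 0.26 and -0.0067 to 0.21 for genotype. Nme1 and Nme4 ran from -0.14 to 0.075 and -0.53 to 0.73 in lung, and Nme4 and Nme6 from -0.032 to 1.21 and -0.075 to 0.11 in lung against node. Nme1 and Nme2 were negative between the genotypes in every setting. With the replicate block no call of a member was kept. The Nme5 call between lung and node was lost in the same samples without the block as well. The blocked exact test of Nme2 could not have given a call.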
